A study of Danio rerio with 6 samples.

Results

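The genes described here are 10 genes of melanin synthesis and of the melanophore, the black pigment cell of zebrafish, chosen by name: tyr, dct, tyrp1a, tyrp1b, pmela, oca2, slc24a5, slc45a2, mitfa and mlpha. Earlier results of these data were known when they were chosen. All 10 were found by symbol among the 24923 genes of the expression table, and all 10 passed the filter on low counts that left 17309 genes for testing. RNA came from larval tail fins, in 3 replicates kept in 8 μM sunitinib, an inhibitor of several receptor tyrosine kinases, and in 3 replicates kept in 0.1% DMSO, the vehicle. Each replicate pooled the tissue of more than 60 larvae, so that differences between single larvae were not measured. Exposure started at 2 days post fertilization, the fin was cut at 3 days, and tissue was collected 6 h after the cut, so every library of both groups came from wounded fins. The labels name the AB strain and the Tg(MPEG-GFP) line, in which the macrophage promoter mpeg drives a green fluorescent protein, without saying which of them gave a library, and the sources used here mention no inhibitor of pigment formation in the medium.

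Melanophores arise from the neural crest. They make melanin inside the melanosome, a relative of the lysosome, where a fibrous scaffold is laid down first and tyrosine is then oxidised step by step into pigment. Transport proteins of the melanosome membrane set the ion content that the enzymes need, and the transcription factor Mitfa switches the program on. In zebrafish the receptor tyrosine kinase Kita, of a kinase family that sunitinib inhibits, is known to guide the migration and survival of embryonic melanophores. The same enzymes are made by the retinal pigment epithelium of the eye, which a tail sample should lack.

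Counted reads summed to between 13394060 and 15294706 per library, and the 10 genes were read 15 to 2491 times in a library. The values of these genes were whole numbers in 60 of 60 cases, although the table also holds estimated fractions of reads. DMSO replicate 1 stood apart from the other libraries, since the chi-square of its pairs was 32.2 to 55.9 for each degree of freedom, while pairs among the other 5 gave 7.98 to 22.7. Genes of skeletal muscle took 21.3% of its reads and 25.1% to 28.7% of those of the other 5 libraries. The fold changes of the 10 genes and the list medians that shifted most without this library are given with and without it. Labels do not say that same-numbered replicates belong together.

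Per unit of length, in the deposited TPM (transcript abundance scaled for length to the same total in every library), 5 of the 10 genes were far more abundant than the other 5. tyrp1b, which encodes a tyrosinase-related protein, had the highest level with 64.5 ± 16.2 TPM (SD, n = 3) in DMSO and 46.9 ± 9.20 (SD, n = 3) with sunitinib. pmela, the premelanosome protein that forms the fibrils of the scaffold, followed with 46.2 ± 12.4 and 33.8 ± 8.54 TPM. The dopachrome tautomerase gene dct lay at 36.7 ± 7.45 and 22.5 ± 5.01 TPM. Next came tyrp1a, the second copy of the tyrosinase-related protein, at 26.2 ± 6.33 and 16.7 ± 4.08 TPM. slc45a2, a transporter of the melanosome whose loss gives the albino fish, stood at 18.9 ± 2.25 and 16.9 ± 2.38 TPM. A gap separated these 5 from the rest. mitfa, the master regulator, had 4.05 ± 0.465 TPM in DMSO, mlpha, which encodes melanophilin, had 3.54 ± 1.82 and tyr, which encodes tyrosinase, had 3.50 ± 0.689. At the bottom were oca2, a melanosome membrane protein whose human counterpart is an albinism gene, with 1.08 ± 0.201 TPM, and slc24a5, the cation exchanger mutated in the golden fish, with 0.890 ± 0.390 TPM in DMSO. Among the DMSO replicates, neighbours in this order overlapped, apart from tyrp1a and slc45a2, slc45a2 and mitfa, and tyr and oca2. With sunitinib the order differed in one place, with slc45a2 just above tyrp1a, and those 2 overlapped. Tyrosinase is the enzyme of the first and rate-limiting step, and its transcript was among the less abundant of the set.

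**Figure D1:**
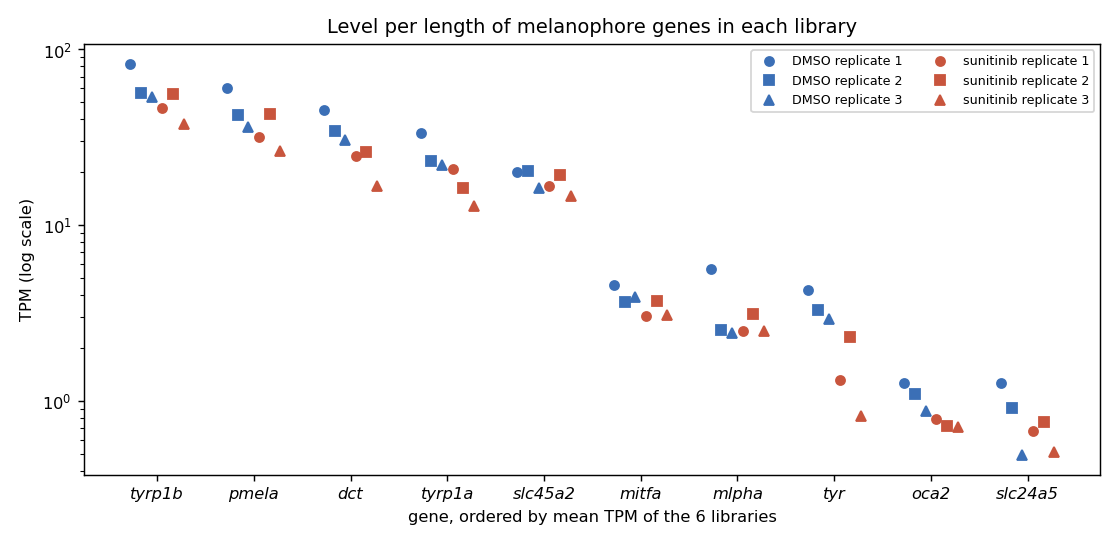
Level of each of the 10 genes in TPM on a log axis, with 1 point per library (blue for DMSO, red for sunitinib, marker shape for the replicate). Mean TPM in DMSO ran from 0.890 for slc24a5 to 64.5 for tyrp1b. For tyr, dct, tyrp1a and oca2 all red points lie below all blue points. In TPM, 11.4% of all tested genes were lower without overlap and 4.01% were higher.

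With sunitinib, tyr was the gene of the set that differed most from DMSO. In normalized CPM (reads scaled to the library total, with TMM factors for library composition), tyr was at 9.08, 7.13 and 6.18 in the DMSO replicates and at 3.57, 4.51 and 1.88 in the sunitinib replicates. Every sunitinib library lay below every DMSO library, and sunitinib replicate 3 was the lowest, with 28 reads. The log2 fold change of sunitinib against DMSO was -1.16, with a standard error of 0.27 and an adjusted p = 0.206 in edgeR, which is 2.24-fold lower. Only 44 of the 17309 tested genes had a log2 fold change as low as this or lower, and 71 genes had a smaller p. tyr did not pass the threshold of 0.05 on the adjusted p. Its adjusted p ran from 0.0513 to 0.590 over the 17 alternative settings, with the lowest value in DESeq2. Its log2 fold change ran from -1.46 to -0.87 when each library was left out in turn, with -0.998 without DMSO replicate 1. In whole tissue, fewer melanophores and less RNA per melanophore cannot be told apart.

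The other genes of the enzyme steps had negative log2 fold changes with overlapping groups. dct, which rearranges dopachrome in the middle of the pathway and marks melanophores from early on, was at 86.9, 67.7 and 58.3 normalized CPM in DMSO and at 60.8, 46.5 and 34.9 with sunitinib. Only sunitinib replicate 1 reached into the DMSO range, by a small margin. The log2 fold change of dct was -0.58 (standard error 0.20, adjusted p = 0.307, edgeR), and without DMSO replicate 1 it was -0.41. tyrp1a was at 65.9, 46.6 and 42.7 normalized CPM in DMSO and at 52.3, 29.5 and 27.0 with sunitinib. Here sunitinib replicate 1 lay among the DMSO libraries while the other 2 lay below them, and the log2 fold change was -0.51 (standard error 0.24, adjusted p = 0.364, edgeR). It was -0.30 without DMSO replicate 1 and -0.87 without sunitinib replicate 1. tyrp1b was at 174.0, 121.1 and 110.8 normalized CPM in DMSO and at 125.4, 108.4 and 85.2 with sunitinib. Its log2 fold change was -0.35 (standard error 0.19, adjusted p = 0.432), and -0.13 without DMSO replicate 1, which held by far the highest value.

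The scaffold gene pmela closely followed tyrp1b. Its normalized CPM were 171.9, 122.9 and 102.8 in DMSO and 116.0, 113.7 and 81.8 with sunitinib, so that the groups overlapped. The log2 fold change of pmela was -0.35 (standard error 0.20, adjusted p = 0.437, edgeR), and -0.12 without DMSO replicate 1.

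Genes for membrane proteins of the melanosome had log2 fold changes from -0.35 to -0.04, and differences between these genes were not tested. slc45a2, the most abundant of them, was at 35.7, 36.8 and 28.6 normalized CPM in DMSO and at 38.1, 31.8 and 28.1 with sunitinib. The 2 groups covered nearly the same range, and the log2 fold change was -0.04 (standard error 0.16, adjusted p = 0.913, edgeR), or -0.0016 without DMSO replicate 1. oca2 was at 6.64, 4.71 and 4.03 normalized CPM in DMSO and at 5.21, 3.30 and 3.77 with sunitinib. Its log2 fold change was -0.33 (standard error 0.24, adjusted p = 0.543), and -0.10 without DMSO replicate 1. slc24a5 was read only 38, 28 and 15 times in DMSO and 24, 23 and 17 times with sunitinib. At this depth its log2 fold change of -0.35 had a standard error of 0.35 (adjusted p = 0.662, edgeR), and the value was -0.01 without DMSO replicate 1.

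The regulator mitfa and the transport adaptor mlpha also had negative log2 fold changes with overlapping groups. mitfa, which encodes the transcription factor without which zebrafish form no melanophores, was at 7.40, 5.95 and 6.25 normalized CPM in DMSO and at 6.18, 5.52 and 5.32 with sunitinib. It varied less between replicates than any other gene of the set, with a highest value 1.24 times the lowest in DMSO and 1.16 times in sunitinib. Its log2 fold change was -0.21 (standard error 0.18, adjusted p = 0.603, edgeR), and -0.11 without DMSO replicate 1. mlpha, whose mouse counterpart links melanosomes through Rab27a to myosin Va, was at 12.4, 5.68 and 5.31 normalized CPM in DMSO and at 7.14, 6.35 and 5.99 with sunitinib. DMSO replicate 1 alone was high, and the log2 value was -0.27 with it (standard error 0.28, adjusted p = 0.680) and 0.24 without it.

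**Figure D2:**
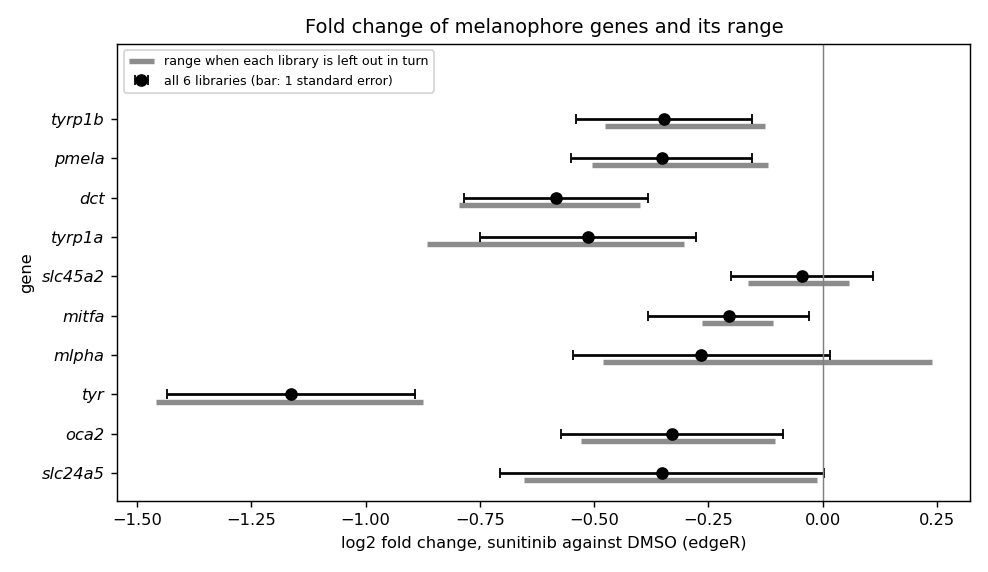
Log2 fold change of sunitinib against DMSO for each of the 10 genes (black point, edgeR, bar of 1 standard error) and the lowest to highest value when each library is left out in turn (grey line). tyr lies at -1.16 with a range of -1.46 to -0.87, while the ranges of slc45a2 and mlpha cross 0.

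Over the set, 10 of 10 log2 fold changes were negative, with a median of -0.35, where 50.5% of all tested genes were negative and their median was -0.0041. None of the 10 passed an adjusted p of 0.05 in edgeR, as did 0% of all tested genes. In DESeq2, none of the 10 was called either, and slc24a5 was given no adjusted p there. DESeq2 called 43 of 24417 genes (0.176%), a total that includes genes without an adjusted p. At an unadjusted p under 0.05, 3 of 10 genes were lower (tyr, dct and tyrp1a), against 6.12% of all tested genes, and none was higher, against 7.51%. The count of lower genes was 5 without DMSO replicate 3, where 3.85% of all tested genes were lower, and 1 without sunitinib replicate 3, where 3.51% were. The count was 4 without sunitinib replicate 1, against 4.01% of all tested genes. It was 2 without DMSO replicate 1, against 5.65% of all tested genes, and also 2 without DMSO replicate 2 (7.73%) or sunitinib replicate 2 (4.42%). The median of the set was -0.11 without DMSO replicate 1 and -0.21 without sunitinib replicate 3, and it was -0.49 without sunitinib replicate 1. The genes share libraries and in part a cell type, so 10 negative values are not 10 independent observations. They were also chosen with earlier results of these data known, so the counts beside the shares over all genes are description only.

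Replicates did not overlap between the groups for 1 of the 10 genes, tyr, in normalized CPM. Such a gap, with sunitinib lower, was present in 10.8% of all tested genes, and with sunitinib higher in 9.15%. The count depended on single libraries, and with fewer libraries the share over all tested genes is larger too. Without sunitinib replicate 1, 6 of the 10 were lower with no overlap, against 14.5% of tested genes, and without DMSO replicate 3 it was 4, against 14.3%. Without DMSO replicate 2 the count was 2, against 18.8%. Without DMSO replicate 1, tyr was lower with no overlap, against 15.8% of tested genes, and mlpha was higher, against 14.9%. In the deposited TPM, a unit compared after the data had been seen, 4 of the 10 genes had no overlap and were lower (tyr, dct, tyrp1a and oca2), against 11.4% of tested genes lower and 4.01% higher. TPM shifted the median log2 difference of 17287 tested genes to -0.12, which accompanies a median of -0.45 for the set. The TPM values are therefore to be read relative to that shift.

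The spread within groups had its own pattern. DMSO replicate 1 held the highest value of its group for 9 of the 10 genes, with DMSO replicate 2 highest for slc45a2. DMSO replicate 3 was the lowest of its group for 9 genes. Of the sunitinib libraries, replicate 1 was highest for 9 genes and replicate 3 was lowest for 9. The median of the 10 deviations from the gene means, on the log2 scale, was 0.59, 0.12 and -0.12 in the DMSO replicates and 0.09, -0.12 and -0.47 in the sunitinib replicates. The groups overlapped on this measure, in that sunitinib replicates 1 and 2 lay between DMSO replicates 2 and 3. Sunitinib replicate 2 did so only just, at -0.118 against -0.123 in DMSO replicate 3. Summed over the 10 genes, normalized CPM were 572.6, 420.5 and 366.0 in DMSO and 416.5, 351.0 and 275.1 with sunitinib. The lowest sum in DMSO was below the highest sum with sunitinib, so that these groups overlapped too. In both groups the medians and the sums fell from replicate 1 to replicate 3. Each sunitinib median and sum lay below that of the same-numbered DMSO library. The labels do not say that these numbers mark pairs, so this is not a paired comparison.

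**Figure D3:**
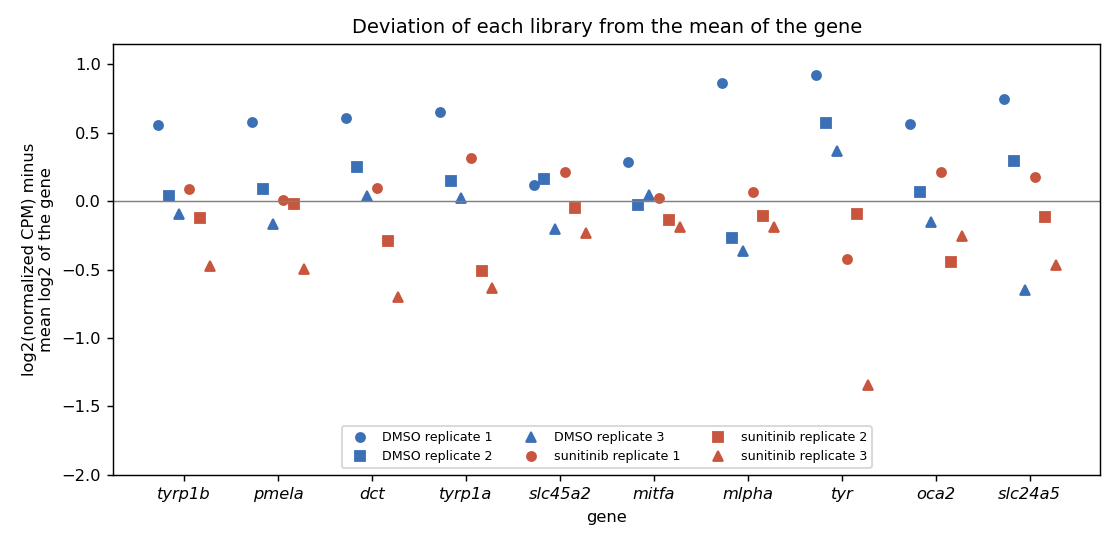
Log2 normalized CPM of each library minus the mean of the gene over the 6 libraries, for each of the 10 genes (blue for DMSO, red for sunitinib, marker shape for the replicate). DMSO replicate 1 is the highest of its group for 9 genes and sunitinib replicate 3 the lowest of its group for 9.

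Ratios between 2 genes of 1 library do not depend on how the library is scaled, and the ratio of tyr to dct was nearly constant in DMSO. For 100 reads of dct there were 10.5, 10.5 and 10.6 reads of tyr in the DMSO replicates. The sunitinib replicates had 5.88, 9.69 and 5.39 tyr reads per 100 of dct, so that replicates 1 and 3 were far below DMSO and replicate 2 was slightly below. Expressed as a share of tyr and dct reads together, tyr took 9.46% (95% Wilson interval 8.02% to 11.1%), 9.53% (7.92% to 11.4%) and 9.58% (7.88% to 11.6%) in DMSO. With sunitinib the share was 5.55% (4.21% to 7.28%), 8.83% (7.06% to 11.0%) and 5.12% (3.57% to 7.30%). The interval of sunitinib replicate 2 overlapped those of DMSO, and the intervals of the other 2 did not. Intervals cover counting error only. Against mitfa, tyr had 122.6, 119.8 and 98.9 reads per 100 in DMSO and 57.8, 81.6 and 35.4 with sunitinib. Per 100 reads of tyrp1b it had 5.22, 5.89 and 5.58 in DMSO and 2.85, 4.16 and 2.21 with sunitinib. Per 100 reads of pmela it had 5.28, 5.80 and 6.01 in DMSO and 3.08, 3.96 and 2.30 with sunitinib. The ratios to mitfa, tyrp1b and pmela varied more among the DMSO replicates than the ratio to dct. None of these ratios was planned, and tyr, the gene of the set that differed most, was the numerator of each. All of them use the same tyr reads as its fold change, so they are not separate observations. The DMSO shares of tyr and dct agreed more closely than their counting error allows one to resolve, so this closeness does not show a fixed ratio.

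The shares of the 2 copies of the tyrosinase-related protein were also close in DMSO, within counting error. tyrp1a made up 27.5%, 27.8% and 27.8% of the reads of both copies there, and 29.4%, 21.4% and 24.1% in the sunitinib replicates. Sunitinib replicate 1 lay above DMSO and the other 2 below it, so this share had no common direction. Reads of tyrp1a and tyrp1b come from related genes, and how the authors assigned reads that match both is not given in the sources used here.

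**Figure D4:**
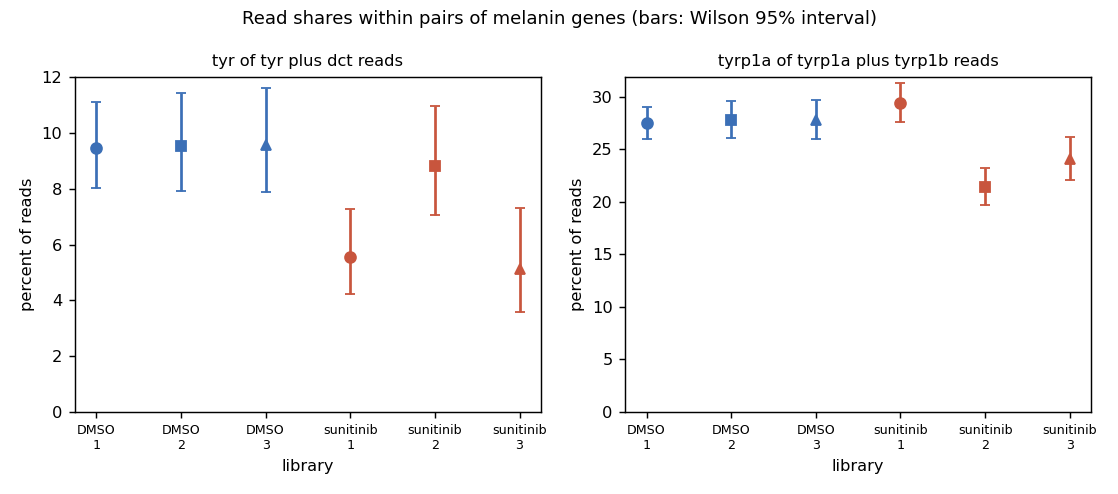
Share of tyr in the reads of tyr and dct (left) and of tyrp1a in the reads of tyrp1a and tyrp1b (right), in percent, 1 point per library with its 95% Wilson interval. The DMSO libraries agree within counting error in both panels, with 9.46% to 9.58% on the left, while sunitinib replicates 1 and 3 stand at 5.55% and 5.12%.

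Set against the mean of the other 9 genes on the log2 scale, a measure chosen after the data were seen and given without a test, tyr was at -1.61, -1.49 and -1.45 in DMSO and at -2.54, -1.87 and -2.93 with sunitinib, a difference of means of -0.93. dct was at 2.01, 2.11 and 2.15 in DMSO and at 2.00, 1.87 and 1.75 with sunitinib, a difference of -0.22 with no overlap but almost touching groups. slc45a2 went the other way, at 0.58, 1.13 and 1.01 in DMSO and at 1.25, 1.26 and 1.40 with sunitinib, a difference of 0.40. The other 7 genes overlapped between the groups on this scale, with differences from -0.16 for tyrp1a to 0.28 for mlpha. A share over all genes does not exist for this scale. In normalized CPM, 10.8% of all tested genes were lower with no overlap and 9.15% were higher, so such gaps are common. tyr lay lower with sunitinib against all genes and within the set. The 2 values use the same tyr reads, so the second is not a separate observation. The positive difference of slc45a2 is relative to a set that was itself lower, since against all genes its log2 fold change was -0.04.

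Of 12 further genes of melanin chemistry and the melanosome, 8 were tested, with 6 negative values and a median log2 fold change of -0.17 (-0.04 without DMSO replicate 1). At an unadjusted p under 0.05, 1 was lower and 1 was higher, against 6.12% and 7.51% of all tested genes. gpr143, a receptor of the melanosome membrane that limits melanosome size in mammals, had a mean of 12.2 ± 1.69 normalized CPM (SD, n = 3) in DMSO and of 9.05 ± 1.39 (SD, n = 3) with sunitinib. This gave -0.43 on the log2 scale (standard error 0.17, adjusted p = 0.329). ctns, the cystine transporter of lysosomes and melanosomes, had 0.60 (standard error 0.21, adjusted p = 0.307). atp7a, which brings copper to tyrosinase, had -0.27 (standard error 0.19), and pah, which makes tyrosine, had -0.26 (standard error 0.18). Paralogs of 2 members, named here outside the rule for named genes, were almost silent: pmelb was read 2 to 6 times per library and mitfb 0 to 7 times.

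Genes of melanosome transport numbered 14 tested of 15, of which 11 had negative values, with a median of -0.30 (-0.13 without DMSO replicate 1). At an unadjusted p under 0.05, 2 were lower and none was higher, against 6.12% and 7.51% of all tested genes. rab27a, the small GTPase that melanophilin binds in mammals, was read 58, 28 and 31 times in DMSO and 25, 23 and 22 times with sunitinib. This gave -0.75 on the log2 scale (standard error 0.32, adjusted p = 0.345), and -0.34 without DMSO replicate 1. myo5aa, a myosin V motor gene, had -0.54 (standard error 0.26, adjusted p = 0.378), the kinesin gene kif5ba had -0.37 (standard error 0.15) and rab1ab had -0.33 (standard error 0.16). These 4, named because they had the smallest p of the list, were the only 4 of the 14 with every sunitinib library below every DMSO library. The p and the gap come from the same values, so this is not a second observation. Over all tested genes the share with such a gap was 10.8%. These motors and GTPases serve many cell types of the fin.

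The machinery that builds lysosome-related organelles, of which 28 of 30 genes were tested, lay on both sides of 0, with 15 positive and 13 negative values and a median of 0.02 (0.09 without DMSO replicate 1). Of the 28, 2 were higher and 2 were lower at an unadjusted p under 0.05, against 7.51% and 6.12% of all tested genes. The complex subunit genes bloc1s6 and dtnbp1b had log2 fold changes of 0.51 (standard error 0.18) and 0.63 (standard error 0.28). vps16, of a tethering complex, had -0.36 (standard error 0.14) and lyst, a regulator of lysosome size, had -0.54 (standard error 0.22).

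Among 27 genes of neural crest and melanophore specification, 20 were tested, with 16 negative values and a median of -0.18 (-0.14 without DMSO replicate 1). At an unadjusted p under 0.05, 4 were lower and none was higher, against 6.12% and 7.51% of all tested genes. These were mc5ra, a melanocortin receptor gene, with -1.01 (standard error 0.34, adjusted p = 0.307), tfap2e with -0.64 (standard error 0.24, adjusted p = 0.314), sox9b with -0.46 (standard error 0.16) and sox5 with -0.40 (standard error 0.13). tfap2e, which encodes a transcription factor of melanophores, was at 9.01, 7.13 and 6.05 normalized CPM in DMSO and at 6.18, 4.82 and 3.23 with sunitinib. kita was at 14.2, 9.90 and 13.2 normalized CPM in DMSO and at 10.3, 9.96 and 9.42 with sunitinib. The groups overlapped, and kita had -0.33 on the log2 scale (standard error 0.17, adjusted p = 0.397). Its ligand gene kitlga had -0.12 (standard error 0.21), and tfap2a had -0.21 (standard error 0.14). sox10, which marks neural crest, pigment cell precursors and glia, had 0.02 (standard error 0.19), ednrba had 0.02 (standard error 0.32) and the melanocortin receptor gene mc1r had 0.33 (standard error 0.32). The directions of sox10 and ednrba changed with the setting.

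Markers of the other fin pigment cells were counted on the same fit. Of 12 marker genes of xanthophores, the yellow pigment cells, 12 had negative values, and their median was -0.49 (-0.41 with DMSO replicate 1 left out). At an unadjusted p under 0.05, 7 were lower and none was higher, against 6.12% and 7.51% of all tested genes. The 7 were led by aox5 with -0.82 (standard error 0.17, adjusted p = 0.199, edgeR), slc2a11b with -0.64, sprb with -1.24 and pax7b with -0.58. DESeq2 called aox5 over all genes (adjusted p = 0.0113). Of 15 tested iridophore and purine synthesis genes, 9 had negative values with a median of -0.12 (0.05 without DMSO replicate 1). At the same threshold and against the same shares, 1 was lower, gmps with -0.41 (standard error 0.14), and none was higher. The remaining named purine genes adsl, impdh1b and ppat had 0.33, -0.26 and -0.26. Differences between these lists and the melanophore genes were not tested.

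**Figure D5:**
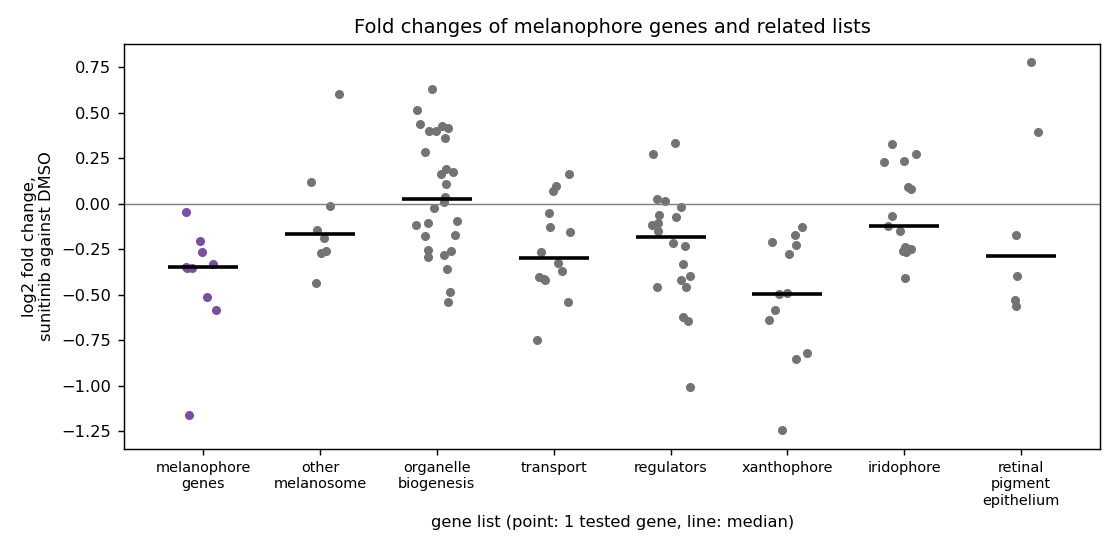
Log2 fold change of sunitinib against DMSO for every tested gene (point) of the 10 melanophore genes and of 7 related lists, with the median of each as a line. Medians are -0.35 for the melanophore genes, -0.49 for xanthophore genes, -0.12 for iridophore genes and 0.02 for the genes of organelle biogenesis.

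Markers of other cell types gave the following values beside these results. Of 11 genes of the retinal pigment epithelium 6 were tested, and the summed normalized CPM of the list was 34.3 to 40.7 in DMSO and 31.7 to 41.8 with sunitinib. Of the 11, the 5 untested genes were at or near 0: rpe65a was read 1 to 4 times per library, rlbp1b 2 to 9 times, best1 1 to 6 times, otx1a 0 to 1 times and best2 not at all. The 6 tested genes were read more: stra6 129 to 243 times, lrata 104 to 231, LOC799194 54 to 92, rdh5 52 to 92, rgra 14 to 50 and otx2 9 to 25 times. Of these, all but LOC799194, rgra, rdh5 and lrata are named outside the rule. Their median log2 fold change was -0.29, or -0.06 without DMSO replicate 1, with -0.56 (standard error 0.20) for LOC799194, whose current symbol is tspan10, and -0.40 (standard error 0.24) for rdh5, while rgra had 0.78 (standard error 0.31) and lrata 0.39 (standard error 0.24).

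Of 20 tested keratinocyte and epidermis markers 16 had positive values, with a median of 0.19. Of the 20, 3 were higher and 1 was lower at an unadjusted p under 0.05. Over all tested genes, 7.51% were higher and 6.12% were lower, and these shares also stand beside the muscle and neural counts below. Their summed normalized CPM was 30181 to 32399 in DMSO and 33451 to 37845 with sunitinib, without overlap. A few abundant genes dominate this sum. krt4, its largest part, had a log2 fold change of -0.04, while cyt1 and cyt1l were each higher with no overlap. Of these, krt4 and cyt1 are named outside the rule. Gene by gene, 5 of the 20 were higher with no overlap and 1 was lower, against 9.15% and 10.8% of all tested genes. The log2 fold changes were 0.77 for epcam, 0.54 for cyt1l, 0.28 for cldne and -1.12 for agr2, which DESeq2 called over all genes. agr2, the one that was lower, is known in zebrafish as a gene of mucous cells and does not mark keratinocytes. The part of epidermal RNA in the values of the melanophore genes was not tested. Skeletal muscle genes, all 28 of which were tested, had 1 higher (pgam2, 0.57) and 1 lower (acta1a, -0.38) and a median of -0.04 (-0.13 without DMSO replicate 1), and pvalb1 and smyhc1 had 0.53 and -0.31. With the muscle genes left out of the scaling, the log2 fold change of tyr was -1.16 and the median of the melanophore genes -0.34. The 12 neural markers had a median of 0.11, with 1 higher (mbpb, 0.35) and 1 lower (elavl3, -0.33), while fabp7a had 0.50 and nefma -0.25. Across all genes, which are not independent replicates, log2 fold changes had a Spearman correlation of -0.40 with gene length. With that trend taken out the median of the melanophore genes was -0.36 and tyr had -1.21.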

How the data were processed

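The comparison was 3 sunitinib against 3 DMSO libraries, grouped by their titles. Libraries were strand-specific and read as pairs of 150 bp, and the authors filtered and aligned the reads to GRCz11, a build also named in the submitters' processing notes, and quantified genes. The sources used here name no aligner, counting tool or annotation, and do not state that the strand was used in counting. The authors deposited estimated counts of reads, not normalized. The deposited FPKM and TPM were scaled by the authors for gene length and depth. A deposited normalized read count signal and the authors' group means were not used.

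Estimated counts were rounded and tested with edgeR 4.0.16 in R 4.3.3 (TMM, filterByExpr, quasi-likelihood F-test, Benjamini-Hochberg adjustment over 17309 genes, threshold 0.05). Standard errors are the log2 fold change divided by the root of the F statistic. The biological coefficient of variation was 0.153. Alternatives were 2 other scalings, TMM without muscle genes, no filter, at least 10 counts in every sample, a replicate block, each library left out, DESeq2 1.42.0, limma 3.58.1 on log2(FPKM + 1) for genes with an FPKM of at least 1 in 3 samples, the same with a pseudocount of 0.1 or no filter, and a lowess offset for gene length (span 0.3, lengths from the deposited counts and FPKM). Scripts were tested on simulated data.

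The 10 genes and the 10 further lists were chosen with earlier results of these data known, and were written from general knowledge. Of 194 list entries, 184 matched by symbol, 9 through a gene ID of the RefSeq table (assembly GRCz12tu, used for names only) and 1 not at all. Named genes are the 10 members, the 4 genes of smallest p in each further list, any gene past the adjusted p, and 6 regulators (kita, kitlga, sox10, tfap2a, ednrba and mc1r). No pair of libraries agreed within sampling noise, so each counted as 1 replicate. Wilson intervals are at 95%. Nothing says beyond the pooling of larvae how replicates were separated, so p-values measure the spread between these pools.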

Additional observations from a re-analysis of the deposited data

How the results depend on the processing

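Across 17 alternatives, 165 of 168 values of the 10 genes kept their direction and none passed an adjusted p of 0.05. The exceptions were slc45a2, which ran from -0.164 to 0.0581 when each library was left out, and mlpha, from -0.48 to 0.24. edgeR called 0 genes of all tested, and 2359 had an unadjusted p under 0.05. It called 12 without the filter on low counts and 0 to 3 with a library left out, DESeq2 called 43 and limma without a filter called 2. With a library left out, 1 to 5 of the 10 genes had an unadjusted p under 0.05. Over all tested genes, 3.51% to 7.73% were then lower and 4.88% to 9.71% higher. Groups did not overlap for 1 to 6 of the 10, against 14.3% to 18.8% of tested genes lower and 12.5% to 17% higher. In TPM, 4 had no overlap, against 11.4% lower and 4.01% higher. Named genes that changed direction ran from -0.40 to 0.0045 (pah), -0.26 to 0.14 (kitlga), -0.17 to 0.20 (sox10) and -0.25 to 0.31 (ednrba) with a library left out. In limma sox10 had -0.0511 with a pseudocount of 1, with or without the filter, and -0.0602 with 0.1, and ednrba had -0.0228 and -0.0341. ednrba had -0.12 with the length trend taken out. The cause was not tested. With a replicate block edgeR called 0 genes, tyr had -1.202 and the median of the set was -0.33. Over all tested genes, same-numbered libraries did not deviate together (correlations of -0.22, -0.12 and 0.03), so the numbers were not taken as pairs. Among the 10 genes, replicate 1 was highest for 9 in both groups and replicate 3 was lowest for 9 in both. Whether the numbers mark pairs for these genes cannot be told from the labels. Depth limits slc24a5 most, with 15 to 38 reads.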
